A study of Mus musculus with 28 samples.

Results

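Matrix progenitors that carried the Lef1-RFP reporter (TAC, 2 libraries) were compared with the whole matrix sort (Mx, 2 libraries) in mouse back skin at postnatal day 5. The genes compared were all those with at least 1 FPKM (fragments per kilobase, a level scaled for transcript length and for the size of the library) in at least 2 of these 4 libraries, 11758 of the 23015 kept in the deposited table. The study sorted 14 skin cell populations by flow cytometry and sequenced 2 libraries of each, 28 in all. TAC cells came from the dermal preparation of K14-H2BGFP, Lef1-RFP skin and were dim for GFP and positive for RFP, and the submitters call them matrix progenitors that express Shh. Mx cells came from the same line and preparation and were dim for GFP, and the labels do not state any RFP gate for them, so TAC cells may be among the Mx cells. All 4 libraries came from mice of a mixed FVB/N, C57Bl/6J and CD1 background carrying Lef1-RFP, and the labels do not say whether the 2 libraries of a group came from separate animals. The Y-linked gene Ddx3y was at 1.89 FPKM in TAC 1 and 3.0 FPKM in Mx 1 and listed at 0 in TAC 2 and Mx 2, so the 2 libraries of each group differed in the sex makeup of the animals. The p-values measure the spread between such libraries.

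The matrix is the pool of dividing epithelial cells at the base of the growing hair follicle, wrapped around the dermal papilla. Its cells stop dividing as they move up and become the medulla, cortex and cuticle of the hair shaft or the layers of the inner root sheath that moulds it. Lef1, a transcription factor through which Wnt signals act, is made by matrix cells that form the shaft, by the dermal papilla and, in these data, by the sorted fibroblasts and melanocytes (levels below), so an RFP gate alone does not separate them. The TAC gate also asked for dim GFP from the keratinocyte promoter of K14, which fibroblasts, papilla cells and melanocytes are not known to use. DF, DP and Mc, which are other sorts of the same line, therefore served as the measure of RNA from outside the hair lineage. DF held dermal fibroblasts (RFP-positive, lacking CD117 and integrin alpha 9), DP held dermal papilla cells (RFP-positive, high in integrin alpha 9) and Mc held melanocytes (RFP-positive and CD117-positive).

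Promoters of 3 genes (picked with their letters known) that the comparison turned on are shown, from RefSeq, build GRCm38.p6, each from 250 bases before to 50 bases after the transcript start that the promoter table lists. For Krt36 that start lies inside the span of the gene given further on, and for the other two it is an end of that span. Krtap8-1 encodes a structural protein of the hair shaft (chr16:89487903-89488202, minus strand), Uox encodes urate oxidase (chr3:146596899-146597198, plus strand), and Krt36 encodes a hair keratin (chr11:100105577-100105876, minus strand). Capitals mark 3 motifs searched on both strands, the TATA-box letters TATAAA and the core letters CTTTGA and CTTTGT of sites read by Lef1 and its relatives (the last 2 share their first letters but differ in the final one, so no stretch can be both).
Krtap8-1: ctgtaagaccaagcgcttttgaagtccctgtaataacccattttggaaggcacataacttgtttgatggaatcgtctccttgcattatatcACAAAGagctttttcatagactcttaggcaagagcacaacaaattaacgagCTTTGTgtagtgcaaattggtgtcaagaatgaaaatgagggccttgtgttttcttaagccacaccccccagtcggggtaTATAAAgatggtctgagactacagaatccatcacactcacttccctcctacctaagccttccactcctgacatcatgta
Uox: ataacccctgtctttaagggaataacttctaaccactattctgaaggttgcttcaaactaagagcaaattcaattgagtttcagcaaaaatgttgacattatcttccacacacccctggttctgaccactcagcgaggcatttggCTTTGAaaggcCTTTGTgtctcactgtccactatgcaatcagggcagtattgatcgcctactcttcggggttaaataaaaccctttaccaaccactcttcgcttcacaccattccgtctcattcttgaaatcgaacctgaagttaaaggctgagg
Krt36: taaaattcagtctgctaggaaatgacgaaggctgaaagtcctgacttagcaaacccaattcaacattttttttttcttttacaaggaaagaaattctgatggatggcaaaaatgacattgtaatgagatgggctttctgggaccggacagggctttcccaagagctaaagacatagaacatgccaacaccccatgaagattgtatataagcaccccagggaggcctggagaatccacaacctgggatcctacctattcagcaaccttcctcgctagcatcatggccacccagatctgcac
The Krt36 window held none of the 3. Of the 47 hair lineage genes that rose in TAC (below), 37 had 46 promoters in the table, of which 17.4% held TATAAA, 15.2% CTTTGA and 26.1% CTTTGT. Over all 32851 promoters of the same length the shares were 13.6%, 16% and 18.7%. These are descriptions of letters, not of binding.

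Of the 11758 genes, 155 rose in TAC (1.32%) and 35 fell (0.298%), together 190 (1.62%), at an adjusted p under 0.05 and a change of at least 1 on the log2(FPKM + 1) scale. In sorted bulk samples fewer cells of a type and less RNA per cell cannot be told apart, here and in all that follows. Over all 15052 genes tested in the series 191 passed (1.27%). The median difference over the members was -0.01. The filter shaped who could pass: of the 10156 members at 1 FPKM in all 4 libraries 69 rose and 27 fell, while 308 members passed through both TAC libraries and no Mx library, and 59 of these rose. Krt36, Padi1, Uox, Gchfr, Nrg1, Hhip and Mfap4, named below, were among these 59. Of the 113 that passed through both Mx libraries and no TAC library 5 fell. Near the edge of the filter, B3gnt3 was included with a second-highest value of 1.0030 FPKM, and Vipr1 stayed out with 0.9997 FPKM. Across all genes tested the TAC libraries correlated with each other at 0.948 and the Mx libraries at 0.960, against 0.927 to 0.944 between TAC and Mx libraries, so the 2 sorts were close to each other. The TAC libraries held 11611 and 11624 genes at 1 FPKM or more and the Mx libraries 11381 and 11105. With the replicate number as a block, which takes out what same-numbered libraries share, 334 genes were called in place of 190 (see the closing sections). The calls were sensitive to single libraries: without TAC 1 there were 74, without TAC 2 72, without Mx 1 51 and without Mx 2 59. Fitted on these 4 libraries alone, without the spread shared by the other sorts, limma called 0 genes, with 2003 at an unadjusted p under 0.05. That fit leaves each difference as it was. Where both libraries of a sort lie above both of the other, leaving 1 out cannot reverse the difference. Every one of the 190 kept its direction in each of these fits, and 32 calls, all of them higher in TAC, held in all 4.

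To set fibroblast, papilla and melanocyte RNA apart, each gene's highest level in DF, DP and Mc was compared with the higher of its TAC and Mx levels. A gene was classed as non-epithelial RNA if it was higher by 2 or more there on the log2 scale, as hair lineage if lower by 1 or more, and as shared in between. Hair lineage held 1382 genes, of which 47 rose (3.40%) and 14 fell (1.01%), with a median difference of -0.17, and with a pseudocount of 0.1 its 61 calls became 22. Shared held 9582, of which 48 rose (0.501%) and 20 fell (0.209%), with a median of -0.02. Non-epithelial RNA held 794, of which 60 rose (7.56%) and 1 fell (0.126%), with a median of 0.38. The plot of difference against level shows the 3 classes.

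**Figure D1:**
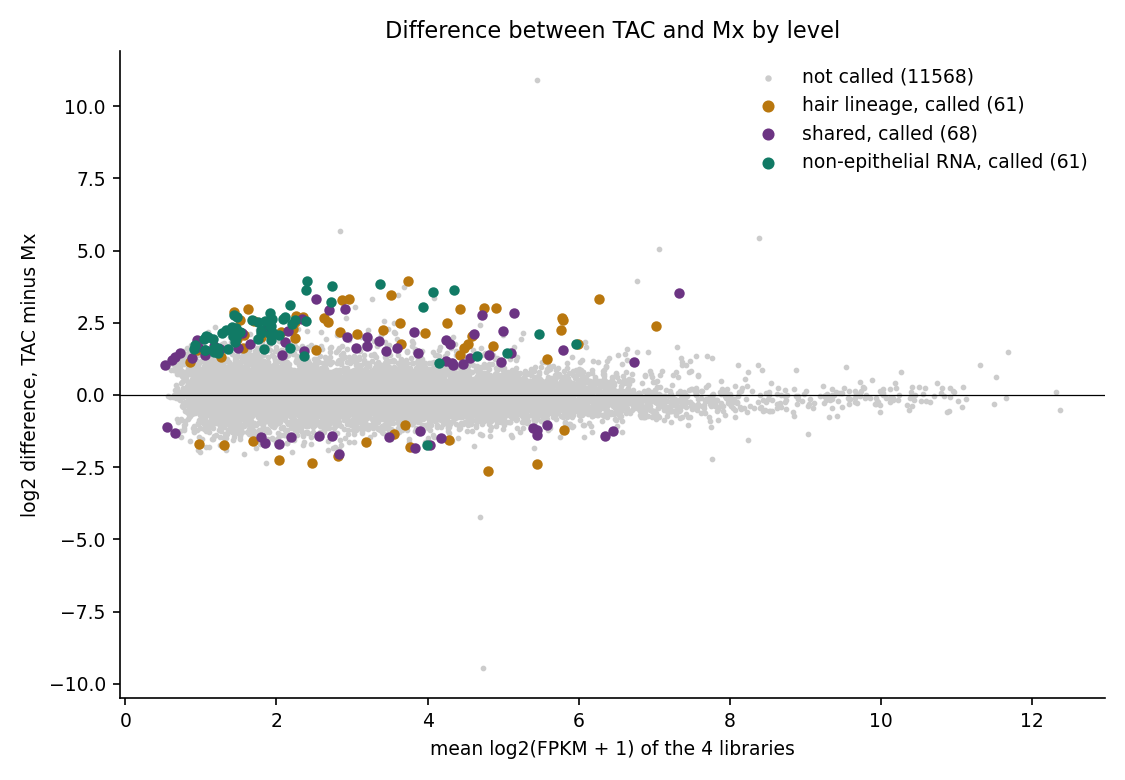
Log2 difference between TAC and Mx (vertical axis, TAC minus Mx) against the mean log2(FPKM + 1) of the 4 libraries (horizontal axis) for all 11758 genes, with the 190 called genes coloured by class. Non-epithelial RNA genes that rose in TAC sit mostly at low levels, and hair lineage genes reach higher ones.

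The sorts used for classing were not free of hair RNA. The 9 hair shaft keratins measured summed to 165.5 and 42.1 FPKM in the DF libraries, against 5.84 and 9.64 FPKM in DP and 2.75 and 3.98 FPKM in Mc. Among the 47 hair lineage genes that rose in TAC, DF was the highest of 6 other sorts of the line for 24 (51.1%), against 66 of the 1321 hair lineage genes not called (5.00%). All 47 had at least 204.0% of their highest DF, DP or Mc level in TAC, with a median of 491.3%. The class rule itself sets this floor. Whether hair cells in the DF sort account for the DF levels was not tested.

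The genes listed as markers of the progenitors, Prdm1, Foxq1, Krt36 and Lef1, came first, and Lef1 did not pass (below). Prdm1 (chr10:44437174-44528558), which encodes the transcriptional repressor Blimp1, had 46.5 and 99.3 FPKM in TAC, against 7.28 and 11.2 FPKM in Mx. Both TAC libraries were above both Mx libraries and the difference was 2.78 ± 0.32 (log2 ± SE, adjusted p = 0.000193), also called with any 1 library left out. Prdm1 was equally abundant in DF (62.2 and 57.4 FPKM) and DP (58.9 and 95.8 FPKM), so it was classed as shared. In TAC it was at 94.3% of its DP level, and the source of this RNA was not tested. Foxq1 (chr13:31558170-31560976), a forkhead factor whose loss in satin mice disturbs the hair medulla, had 53.0 and 66.2 FPKM in TAC, against 7.62 and 5.94 FPKM in Mx. The groups did not overlap and Foxq1 rose by 2.96 ± 0.52 (adjusted p = 0.00502). In DP it reached 0.329 FPKM at most, and in DF 9.58 FPKM. The Foxq1 call was lost without TAC 2 (2.80, adjusted p = 0.0583) or Mx 2 (2.80, adjusted p = 0.0789), and with a pseudocount of 0.1 in place of 1 (3.12, adjusted p = 0.117). Krt36 (chr11:100102012-100109487) had 5.13 and 3.77 FPKM in TAC, against 0.157 and 0.757 FPKM in Mx, and rose by 1.92 ± 0.46 (adjusted p = 0.0395). It was low in both sorts, and its call was lost without any 1 library, with adjusted p of 0.319 (TAC 1), 0.12 (TAC 2), 0.374 (Mx 1) and 0.116 (Mx 2).

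Lef1 itself (chr3:131110297-131224357), the gene of the reporter, had 258.0 and 232.2 FPKM in TAC, against 105.2 and 114.5 FPKM in Mx. The groups did not overlap, but the difference of 1.15 ± 0.42 did not pass (adjusted p = 0.287). Lef1 was at 90.4 ± 48.5 FPKM in DF, 92.1 ± 6.54 in DP and 97.8 ± 29.9 in Mc (SD, n = 2 each), below TAC in all 3. Shh (chr5:28456840-28467101), the Hedgehog ligand in the TAC label, had 70.5 and 55.0 FPKM in TAC, against 51.5 and 44.2 FPKM in Mx, with a difference of 0.38 ± 0.67 (adjusted p = 1.0). Both sorts thus held Shh RNA at levels that were not told apart. Krt14, whose promoter drives the GFP, had 104.9 and 76.1 FPKM in TAC, against 173.6 and 128.3 FPKM in Mx (-0.73 ± 0.52, adjusted p = 0.782), both far below Epi, the GFP-positive epidermal sort, at 5375.5 ± 1257.3 FPKM (SD, n = 2).

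Beyond Prdm1 and Foxq1, 1 of the 27 matrix transcription factors measured, Sox9, fell, and the other 24 did not pass. The list's median difference was 0.02, near that of all members. Hoxc13, a homeobox factor that controls hair keratin genes, had 295.0 and 262.4 FPKM in TAC, against 87.6 and 88.5 FPKM in Mx (1.65 ± 0.41, adjusted p = 0.0542). Msx2, another homeobox factor of shaft-forming cells, had 265.4 and 266.0 FPKM in TAC, against 108.8 and 126.5 FPKM in Mx (1.17 ± 0.42, adjusted p = 0.264). For both genes the TAC libraries lay above the Mx libraries without passing the test. Dlx3, a homeobox factor of the matrix, was closer, with 279.5 and 258.7 FPKM in TAC, against 240.0 and 221.5 FPKM in Mx.

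The medians of the shaft and inner root sheath lists lay on opposite sides of 0. All 9 hair shaft keratins had a positive difference, with a median of 1.35, and Krt36 was the 1 that rose. In 8 of the 9 both TAC libraries were above both Mx libraries, against 21.8% of all members. Krt35, a keratin of the early shaft, had 338.8 and 263.3 FPKM in TAC, against 102.4 and 132.4 FPKM in Mx (1.35 ± 0.74, adjusted p = 0.621). Krt31 had 14.2 and 26.3 FPKM in TAC, against 1.39 and 6.52 FPKM in Mx (adjusted p = 0.228). Of 16 inner root sheath genes 1, Padi1, rose, and the median difference was -0.37. In 5 of the 16 both TAC libraries were above both Mx libraries and in 7 below, against 21.8% and 22.5% of all members, and 7 of the 16 differences were positive, so the list did not lie on one side. Krt25 had 365.8 and 294.3 FPKM in TAC, against 837.6 and 833.9 FPKM in Mx (-1.35 ± 0.45, adjusted p = 0.209). Krt71, its keratin partner in the sheath, had 197.1 and 157.3 FPKM in TAC, against 468.8 and 577.7 FPKM in Mx (-1.56 ± 0.63, adjusted p = 0.370). Both sheath keratins were lower in every TAC library than in any Mx library, but neither difference passed. Of 14 shaft structure genes 1, Krtap8-1, rose, with a list median of 1.29.

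Among the enzymes that cross-link and modify hair proteins, 2 of 7 rose, against 1.32% of all members, and the median of the 7 was 1.56. Padi1, 1 of the 2, passed the filter through its TAC libraries alone, and 59 of the 308 such members rose. Tgm6 (chr2:130112416-130154233), a transglutaminase, had 70.8 and 98.0 FPKM in TAC, against 7.93 and 11.5 FPKM in Mx. Tgm6 rose by 3.0 ± 0.39 (adjusted p = 0.000341) and stayed called with any 1 library left out. Padi1, which converts protein arginine to citrulline, had 2.06 and 1.37 FPKM in TAC, against 0.21 and 0.207 FPKM in Mx (1.15 ± 0.23, adjusted p = 0.0133). Its call held without TAC 2 alone, with adjusted p of 0.184 without TAC 1, 0.119 without Mx 1 and 0.116 without Mx 2. Tgm3 (25.8 and 60.3 FPKM in TAC, against 7.5 and 11.2 FPKM in Mx, adjusted p = 0.0659) and Padi3 (67.0 and 78.4 FPKM in TAC, against 14.3 and 23.5 FPKM in Mx, adjusted p = 0.0831), which act on the shaft and on the sheath and medulla, did not pass. Ivl, which encodes the cornified envelope protein involucrin, had 13.7 and 35.8 FPKM in TAC, against 2.47 and 5.93 FPKM in Mx. Ivl rose by 2.24 ± 0.54 (adjusted p = 0.0411) and was the 1 called of 12 epidermal differentiation genes, whose median was -0.13. The Ivl call was lost without TAC 2 (1.58, adjusted p = 0.388), Mx 1 (1.75, adjusted p = 0.44) or Mx 2 (2.74, adjusted p = 0.0817).

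The 12 hair lineage genes with the largest rise, among those averaging at least 5 FPKM in TAC, were Sct, Csta, Krtap8-1, Psors1c2, Vat1l, Soat1, Tgm6, Foxq1, Uox, Gchfr, Sptssb and Kitl. Krtap8-1 (chr16:89487374-89487952), a keratin-associated protein whose promoter is printed above, had 223.3 and 264.7 FPKM in TAC, against 19.1 and 28.4 FPKM in Mx (3.33 ± 0.73, adjusted p = 0.0252). It belongs to a family of near copies, so its reads may be shared with others. Csta, a protease inhibitor of the cornified envelope listed under that symbol, had 20.4 and 66.7 FPKM in TAC, against 1.67 and 3.49 FPKM in Mx (3.46 ± 0.51, adjusted p = 0.000913). Soat1, which esterifies cholesterol, had 48.6 and 117.5 FPKM in TAC, against 5.76 and 12.3 FPKM in Mx (3.02 ± 0.37, adjusted p = 0.000197). All 3 stood clearly above Mx in both TAC libraries, but at different levels in the 2 TAC libraries for Csta and Soat1. Uox (chr3:146597149-146631483) had 6.07 and 9.49 FPKM in TAC, against 0.0 and 0.225 FPKM in Mx (2.96 ± 0.40, adjusted p = 0.000410). Gchfr, a regulator of GTP cyclohydrolase, had 4.32 and 9.04 FPKM in TAC and was listed at 0 in both Mx libraries (adjusted p = 0.000341). Vat1l had 16.1 and 29.3 FPKM in TAC, against 1.63 and 1.1 FPKM in Mx (3.28 ± 0.39, adjusted p = 0.000193).

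The libraries of a sort differed among themselves in these genes. TAC 2 was above TAC 1 in 11 of the 12 and in 31 of the 47 hair lineage genes that rose, and the 2 TAC libraries were at least 2-fold apart in 6 of the 12, the 2 Mx libraries in 7. Of the 47, this held for 10 in TAC and 19 in Mx. Sct, the hormone secretin, had TAC libraries far apart, with 26.0 and 101.4 FPKM in TAC, against 3.35 and 1.67 FPKM in Mx (3.95 ± 0.94, adjusted p = 0.0407). Sptssb, a subunit of the enzyme that starts sphingolipid synthesis, had 4.49 and 30.1 FPKM in TAC, against 0.336 and 1.98 FPKM in Mx (2.71 ± 0.62, adjusted p = 0.0300). Csta, Vat1l, Soat1, Tgm6, Uox and Gchfr stayed called whichever library was left out. With a pseudocount of 0.1, however, Vat1l (adjusted p = 0.0837), Sct and Psors1c2 (0.304 each), Sptssb (0.104) and Foxq1 lost their calls. Of the 12 calls 9 held without TAC 1, 6 without TAC 2, 7 without Mx 1 and 7 without Mx 2. Sct, Krtap8-1 and Psors1c2 lost theirs in all 4 fits, with adjusted p of Sct between 0.0566 and 0.358. Without TAC 2 the Sptssb difference was 1.46 (adjusted p = 0.421).

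**Figure D2:**
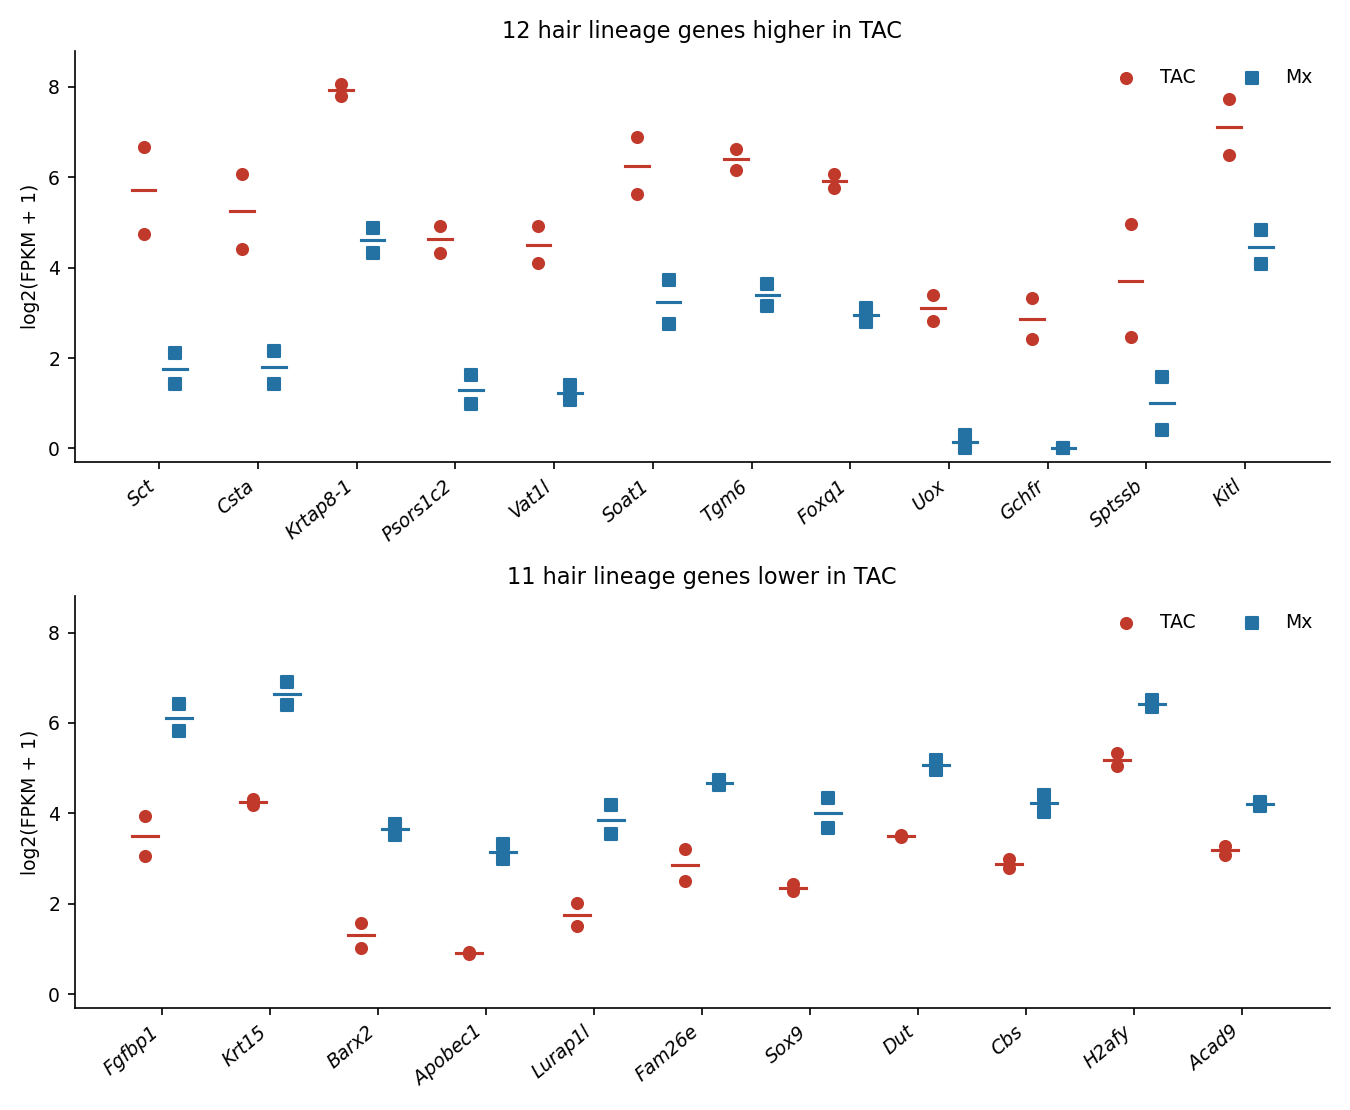
Level of the named hair lineage genes in each library on the log2(FPKM + 1) scale, TAC as circles and Mx as squares, 2 libraries each, with bars at the means of the log2 values. The upper panel holds the 12 genes with the largest rise in TAC and the lower panel the 11 with a fall. In all of them the libraries of the 2 sorts do not overlap, which follows largely from their selection as called genes. Of all members, 21.8% had both TAC libraries above both Mx libraries and 22.5% below.

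Lists of signalling genes gave 1 to 3 calls each, all higher in TAC, where 1.32% of all members rose. Of these calls Hhip, Bmp6, Inhba, Hey2 and Crabp1 were classed as non-epithelial RNA. Kitl (chr10:100015615-100100416), the ligand of the Kit receptor on melanocytes, had 88.5 and 211.9 FPKM in TAC, against 16 and 27.4 FPKM in Mx. It rose by 2.65 ± 0.49 (adjusted p = 0.00696), the 1 called of 11 signals to melanocytes and mesenchyme, whose median was 0.16. In Mc Kitl was at 1.69 FPKM and in DF at 33.8 and 24.6 FPKM. The Kitl call was lost without TAC 2 (2.03, adjusted p = 0.131) or Mx 1 (2.28, adjusted p = 0.134). Of 15 Hedgehog pathway genes 2 rose, Gli3 and Hhip, with a median of 0.16. Gli3 (chr13:15463723-15730026), a transcription factor that mostly represses Hedgehog targets, had 108.2 and 124.9 FPKM in TAC, against 33.2 and 33.5 FPKM in Mx. It rose by 1.77 ± 0.24 (adjusted p = 0.000431) and stayed called without any 1 library. The receptor and target Ptch1 had 123.8 and 87.9 FPKM in TAC, against 111.2 and 82.1 FPKM in Mx (0.13 ± 0.35, adjusted p = 1.0). Hhip, a Hedgehog inhibitor that was classed as non-epithelial RNA, had 3.71 and 5.36 FPKM in TAC, against 0.0611 and 0.248 FPKM in Mx, and 209.8 and 309.9 FPKM in DP.

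Of 36 Wnt pathway genes 1 rose, with a list median of 0.10. It was Wnt3, a ligand, with 12.2 and 16.5 FPKM in TAC, against 1.19 and 4.17 FPKM in Mx (2.18 ± 0.40, adjusted p = 0.00667). The Wnt3 call was lost without TAC 2 (1.97, adjusted p = 0.0816) or Mx 1 (1.56, adjusted p = 0.179). Of 28 BMP and TGF-beta pathway genes 3 rose, Bmp2, Bmp6 and Inhba, with a median of 0.37. Bmp2, a ligand made by matrix cells that enter the shaft, had 47.8 and 36.2 FPKM in TAC, against 11.3 and 12.1 FPKM in Mx (1.75 ± 0.38, adjusted p = 0.0253). The groups were well apart, but the Bmp2 call was lost with any 1 library left out, with adjusted p of 0.269 (TAC 1), 0.08 (TAC 2), 0.184 (Mx 1) and 0.159 (Mx 2). Bmp6 and Inhba, an activin subunit, were classed as non-epithelial RNA, at 9.03% and 2.09% of their DP level in TAC. Of 15 Notch pathway genes 1 rose, the target Hey2, also non-epithelial RNA at 3.0% of its DP level.

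Of 14 retinoic acid genes 2 rose, with a median of 0.69. Aldh1a3 (chr7:66390892-66427477), which makes retinoic acid, had 129.5 and 140.7 FPKM in TAC, against 17.6 and 26.4 FPKM in Mx. It rose by 2.59 ± 0.43 (adjusted p = 0.00301), and the call was lost without Mx 1 (2.31, adjusted p = 0.0778). Stra6, which carries retinol into cells, had 110.5 and 147.5 FPKM in TAC, against 29.3 and 41.2 FPKM in Mx (1.85 ± 0.59, adjusted p = 0.180). The other call, the binding protein Crabp1, was non-epithelial RNA. Of 17 FGF and EGF pathway genes 2 rose, both ligands of EGF-family receptors and both classed as shared. Hbegf had 16.3 and 12.6 FPKM in TAC, against 2.95 and 2.65 FPKM in Mx (2.01 ± 0.36, adjusted p = 0.00642), and Nrg1 had 2.6 and 2.32 FPKM in TAC, against 0.0 and 0.194 FPKM in Mx (1.66 ± 0.34, adjusted p = 0.0179). Hbegf stayed called without TAC 2 alone (adjusted p of 0.0896 without TAC 1, 0.0673 without Mx 1 and 0.0817 without Mx 2). Nrg1 lost its call in all 4 such fits (adjusted p of 0.131 without TAC 1, 0.0838 without TAC 2, 0.182 without Mx 1 and 0.0925 without Mx 2).

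The 14 hair lineage genes that fell included genes of the outer root sheath. For 8 of the 14 (57.1%) the highest of the 6 other sorts of the line was ORS, the brightly GFP-positive outer root sheath, and for 4 it was Epi, against 37.9% and 36.0% of the hair lineage genes not called. Krt15 (chr11:100131759-100135949), a keratin of basal and bulge cells, had 18.8 and 17.2 FPKM in TAC, against 118.9 and 83.2 FPKM in Mx (-2.40 ± 0.42, adjusted p = 0.00463). In ORS it averaged 819.0 FPKM. Sox9 (chr11:112782210-112787757), a transcription factor of the sheath and stem cells, had 3.86 and 4.41 FPKM in TAC, against 19.1 and 11.8 FPKM in Mx (-1.64 ± 0.38, adjusted p = 0.0315), and 80.5 FPKM in ORS. Barx2, a homeobox factor, had 1.03 and 1.98 FPKM in TAC, against 12.6 and 10.5 FPKM in Mx (-2.34 ± 0.49, adjusted p = 0.0189). Fgfbp1, a carrier that releases FGFs, had 7.27 and 14.3 FPKM in TAC, against 55.4 and 84.4 FPKM in Mx (-2.63 ± 0.64, adjusted p = 0.0479). In all 4 genes both TAC libraries were below both Mx libraries. Of the 26 basal and sheath keratinocyte genes measured, however, 2 fell (Krt15 and Sox9) and 2 rose (Slc7a8 and Fstl1), with a median difference of 0.09. In 9 of the 26 both TAC libraries were above both Mx libraries and in 9 below, so that list did not lie on one side.

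Apobec1, Lurap1l, Fam26e, Dut, Cbs, H2afy and Acad9 also fell. Dut, which removes dUTP before it can enter DNA, had 10.1 and 10.4 FPKM in TAC, against 30.3 and 35.1 FPKM in Mx (-1.57 ± 0.29, adjusted p = 0.00780). H2afy, a histone H2A variant, had 32.2 and 39.2 FPKM in TAC, against 89.8 and 80.4 FPKM in Mx (-1.23 ± 0.26, adjusted p = 0.0207). Lrig1, a stem cell marker of the upper follicle classed as shared, had 3.89 and 1.51 FPKM in TAC, against 19.4 and 9.12 FPKM in Mx (-2.04 ± 0.45, adjusted p = 0.0274), and was the 1 that fell of 7 upper follicle and sebaceous genes. These falls rested on all 4 libraries: of the 11 named hair lineage genes 1, Krt15, stayed called without TAC 1, TAC 2 or Mx 2, and it lost its call without Mx 1 (-2.15, adjusted p = 0.0957). For Dut the adjusted p was 0.0693, 0.0583, 0.0634 and 0.116 without TAC 1, TAC 2, Mx 1 and Mx 2. For Sox9 it was 0.236, 0.126, 0.376 and 0.0789, and for H2afy 0.228, 0.0684, 0.187 and 0.116. For Fgfbp1 it was 0.42, 0.0971, 0.165 and 0.376, and for Barx2 0.209, 0.0583, 0.172 and 0.112. Lrig1 lost its call without TAC 2 (adjusted p = 0.291) or Mx 1 (adjusted p = 0.383).

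None of 20 DNA replication genes passed the test, and all 20 had a negative difference, with a median of -0.80. In 17 of the 20 both TAC libraries were below both Mx libraries, against 22.5% of all members. Together they summed to 626.1 and 605.8 FPKM in TAC, against 1107.4 and 1062.4 FPKM in Mx. Of 21 mitosis genes none passed, 16 had both TAC libraries below both Mx libraries, and the median was -0.55. Mki67, a protein of dividing cells, had 214.7 and 174.1 FPKM in TAC, against 323.0 and 298.3 FPKM in Mx (-0.68 ± 0.58, adjusted p = 0.864). The groups did not overlap for Mki67 or for either sum, but no single gene passed the test. Of 6 cyclin-dependent kinase inhibitors none passed. Cdkn1a had 345.0 and 316.2 FPKM in TAC, against 129.9 and 128.7 FPKM in Mx (1.35 ± 0.44, adjusted p = 0.205). Of 17 genes known to respond to cell dissociation none passed and 16 had a positive difference. In 10 of the 17 both TAC libraries were above both Mx libraries and in 0 below, against 21.8% and 22.5% of all members. The 17 summed to 3353.0 and 2081.9 FPKM in TAC, against 1960.1 and 1281.0 FPKM in Mx, with TAC 2 close to Mx 1. The part of this difference in the results above was not tested.

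**Figure D3:**
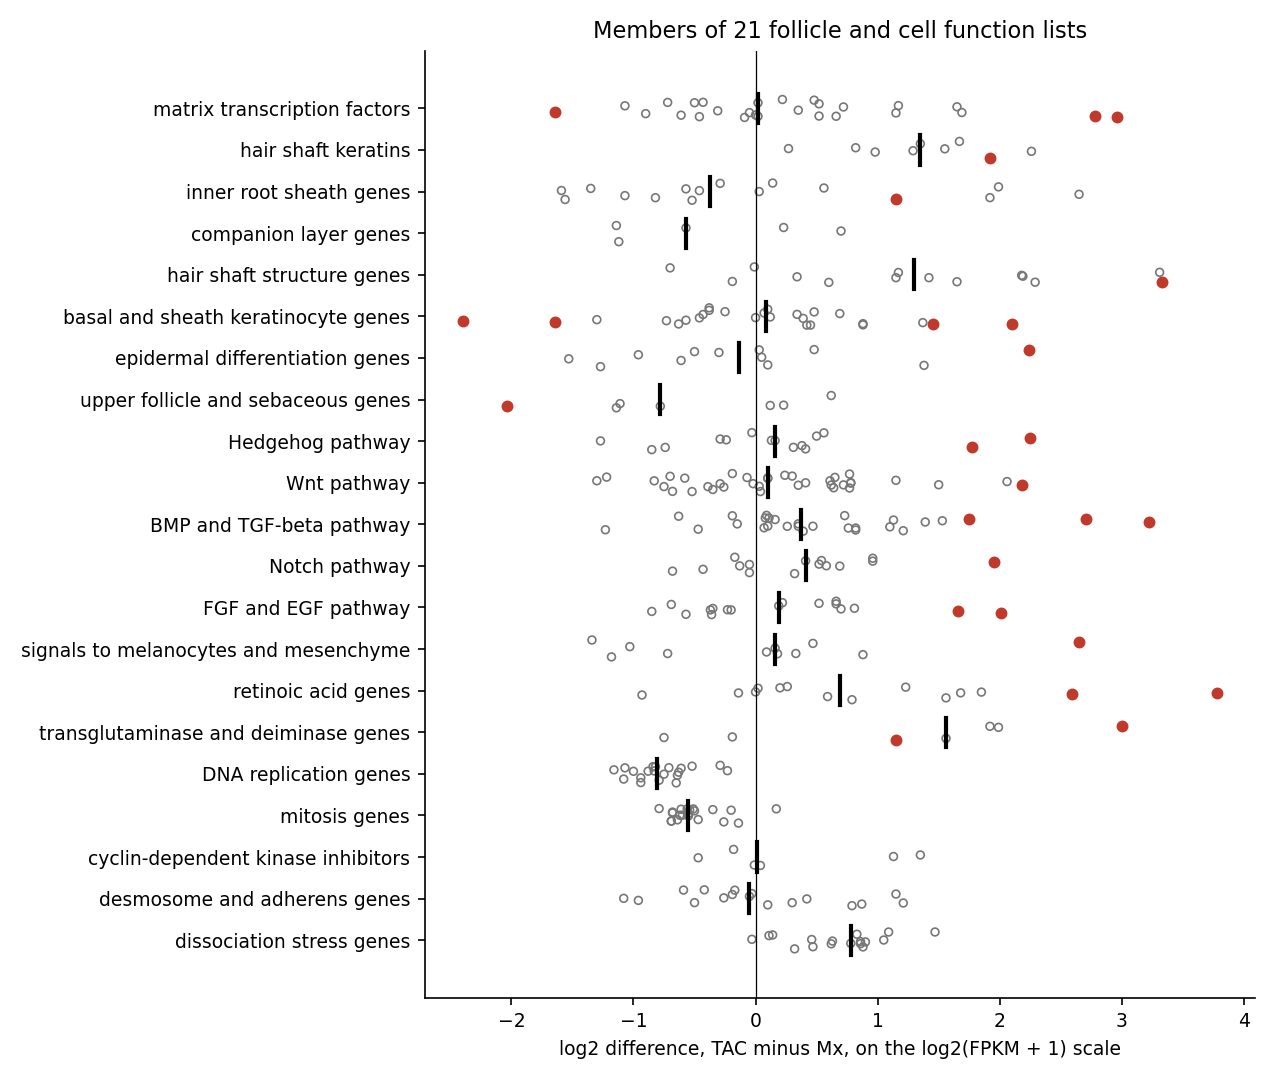
Log2 difference between TAC and Mx (horizontal axis, TAC minus Mx, on the log2(FPKM + 1) scale) for the members of 21 lists of follicle and cell function genes. Each point is a gene, filled red where called and open where not, and black bars mark the list medians, from 1.56 for the transglutaminase and deiminase genes to -0.80 for the DNA replication genes.

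The 60 non-epithelial RNA genes that rose had a median of 3.15% of their highest DF, DP or Mc level in TAC (range 1.01% to 23.5%), against a median of 0.276% in Mx. The class rule itself keeps these values low. DP was the highest of the 3 sorts for 39 genes, DF for 12 and Mc for 9. Col3a1 (chr1:45311538-45349706), a fibrillar collagen, had 72.1 and 70.4 FPKM in TAC, against 4.06 and 5.54 FPKM in Mx (3.65 ± 0.44, adjusted p = 0.000193), and 831.6 and 2358.0 FPKM in DF. Col1a1, another collagen, had 52.5 and 27.7 FPKM in TAC, against 1.51 and 1.99 FPKM in Mx (3.84 ± 0.65, adjusted p = 0.00353). Mfap4, a protein of elastic fibres, had 20.0 and 15.3 FPKM in TAC, against 0.534 and 0.47 FPKM in Mx (3.62 ± 0.43, adjusted p = 0.000193). These 3 were low in both Mx libraries and clearly present in both TAC libraries. Lum, Crabp1 and Ptgds, the other 3 of the 6 with the largest rise, had differences of 3.93, 3.78 and 3.57. Col3a1 and Mfap4 stayed called without any 1 library. Col1a1 lost its call without TAC 1 (adjusted p = 0.0683) or Mx 1 (adjusted p = 0.0617), Crabp1 without TAC 2 (adjusted p = 0.0971) or Mx 2 (adjusted p = 0.19), and Lum and Ptgds without any of the 4. Slc7a8 and Fstl1, outer root sheath genes at 144.8 and 121.9 FPKM in ORS, also fell into this class and rose by 2.1 and 1.45. The class thus includes genes that follicle epithelium also expresses. For all 60, these 2 among them, the highest of the 6 other sorts of the line was DF, DP or Mc. The class rule favours this, as the shares of the genes not called show. The source of their RNA in TAC was not tested.

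Marker lists gave the size of this RNA. Of 13 fibroblast markers measured 7 rose, of 12 papilla markers 8, Prdm1 among them, and of 12 melanocyte markers 1, Ednrb, with list medians of 2.08, 2.41 and 2.24, against 1.32% that rose of all members and a median of -0.01. The papilla markers summed to 116.6 and 187.1 FPKM in TAC, against 13.8 and 16.4 FPKM in Mx. Prdm1, whose levels are given above, makes up a large part of these sums in both sorts, and the source of its RNA was not tested. The melanocyte markers summed to 309.6 and 216.2 FPKM in TAC, against 42.6 and 53.6 FPKM in Mx. The fibroblast markers summed to 584.0 and 498.4 FPKM in TAC, against 522.9 and 442.3 FPKM in Mx, but Dcn, the proteoglycan decorin, had 307.2 and 294.3 FPKM of this in TAC, against 481.5 and 406.8 FPKM in Mx. Without Dcn, a step chosen after its values were seen that leaves Fbln1 in, the sums were 276.7 and 204.1 FPKM in TAC, against 41.3 and 35.5 FPKM in Mx. The papilla and melanocyte sums were thus higher in both TAC libraries than in either Mx library, and the fibroblast sum only without Dcn. With Dcn, TAC 2 (498.4 FPKM) was below Mx 1 (522.9 FPKM). In 10 of the 13 fibroblast markers both TAC libraries were above both Mx libraries and in 1 below, against 21.8% and 22.5% of all members. No fibroblast, papilla or melanocyte marker was at 0 in both TAC libraries. Mlana, a melanosome protein, had 60.3 and 46.8 FPKM in TAC, against 3.06 and 5.94 FPKM in Mx (adjusted p = 0.108), and 5036.3 FPKM in Mc.

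As a share of the sort that each list marks, the median fibroblast marker had 5.89% of its DF level in TAC, against 0.508% in Mx (13 genes). The median papilla marker had 1.69% of its DP level in TAC, against 0.112% in Mx (17 genes). The median melanocyte marker had 1.78% of its Mc level in TAC, against 0.195% in Mx (13 genes, of which TAC ranged from 1.06% to 2.43%). Prdm1, at 94.3%, stood apart from the other papilla markers, and Fbln1, an extracellular matrix protein at 183.9% of its DF level in TAC and 217.4% in Mx, and Dcn, at 59.3% in TAC, from the fibroblast markers. Of the lists of other cells, none of 8 pericyte, 7 endothelial, 7 Schwann cell, 2 leukocyte, 2 erythroid, 2 adipocyte and 1 skeletal muscle markers passed, and no mast cell or Merkel cell marker reached the filter. The median endothelial marker had 4.54% of its level in the marker-negative sort in TAC, against 6.16% in Mx. The median Schwann cell marker had 7.16% of its DF level in TAC, against 2.66% in Mx, with 10 of 12 higher in TAC and sums of 110.7 and 91.4 FPKM in TAC, against 69.0 and 54.2 FPKM in Mx. The part of fibroblast, papilla and melanocyte RNA in the calls of the shared class was not tested. For the 47 hair lineage genes that rose, TAC exceeded each of these sorts by construction of the class.

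**Figure D4:**
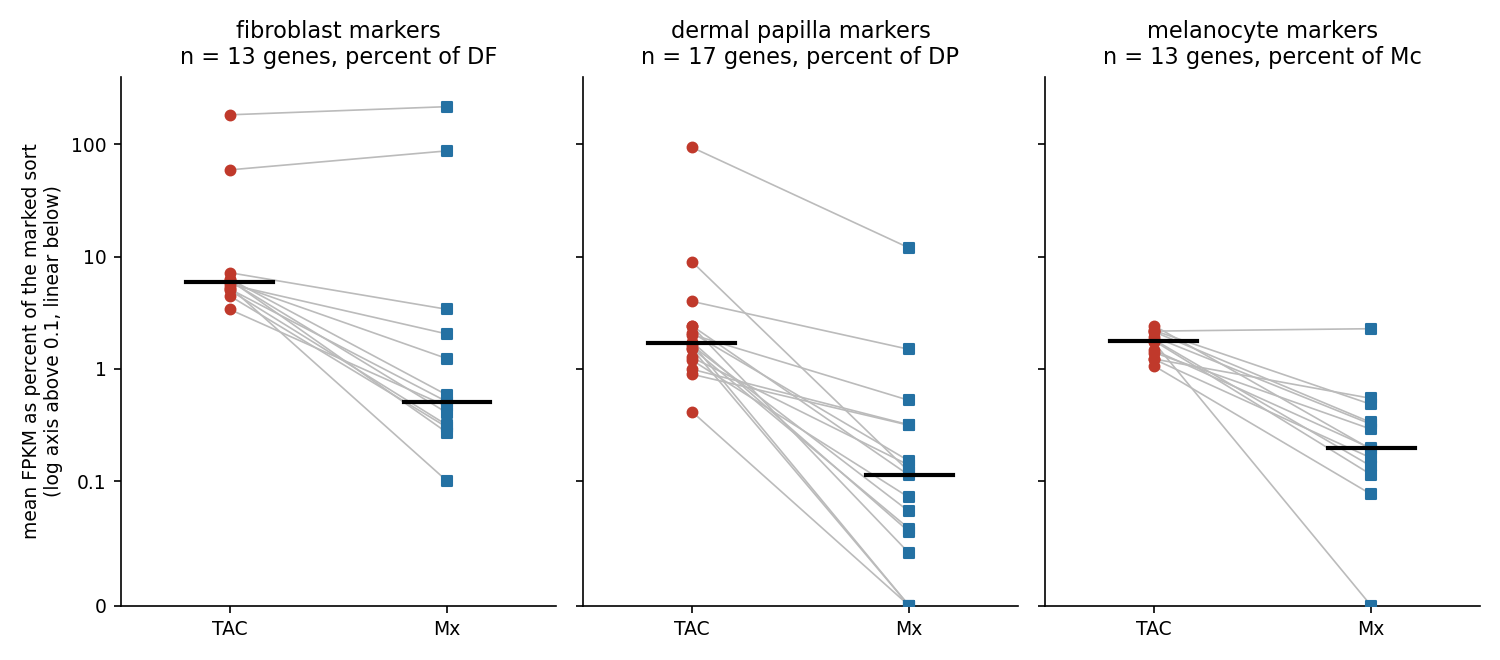
Mean FPKM of each marker gene in TAC (left, circles) and Mx (right, squares) as a percent of its mean in the sort that it marks, with lines joining the same gene and black bars at the medians. The vertical axis is logarithmic above 0.1% and linear below. Most markers of all 3 kinds lie between 0.4% and 10% in TAC and lower in Mx, with Fbln1, Dcn and Prdm1 as exceptions.

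The 48 shared genes that rose had levels in TAC from 23.3% to 485.4% of their highest DF, DP or Mc level, with a median of 92.3%, and 23 were above that level. Genes named here were chosen after their values were seen. Ednra, the endothelin receptor A, had 93.1 and 95.5 FPKM in TAC, against 9.57 and 15.5 FPKM in Mx (2.85 ± 0.32, adjusted p = 0.000193), and 64.9 and 70.3 FPKM in DP. Gpnmb (chr6:49036518-49058182), a membrane glycoprotein known from melanosomes, had 450.5 and 669.4 FPKM in TAC, against 36.0 and 59.6 FPKM in Mx (3.54 ± 0.63, adjusted p = 0.00551). Its level in TAC was 87.6% of that in Mc, and the source of its RNA in TAC was not tested. Gpc3, a cell surface proteoglycan, had 47.5 and 52.5 FPKM in TAC, against 11.3 and 10.3 FPKM in Mx (2.11 ± 0.31, adjusted p = 0.000974), at 42.1% of its DP level. Ednra and Gpc3 stayed called without any 1 library, and Gpnmb lost its call without TAC 2 (3.25, adjusted p = 0.0707) or Mx 1 (3.18, adjusted p = 0.1).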

How the data were processed

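From each sort of mouse back skin 6 ng of RNA, with an integrity number of at least 8.8, was amplified before library construction, per the labels' protocols. The authors deposited 1 table of FPKM for 28 libraries. Tools listed in the submitters' processing notes are Bowtie2, TopHat2 2.0.3 and Cufflinks 2.1.1, with the build mm10. For filters and any scaling between libraries the status is: not given in the sources used here. The depth of the libraries is unknown, so no counting interval is given, and amplification from little RNA limits low genes.

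Of 23235 rows 220 repeats were dropped. Genes with at least 1 FPKM in 2 of 28 libraries (15052) were fitted with limma 3.58.1 in R 4.3.3 on log2(FPKM + 1), which understates changes of low genes, with 1 mean per population, moderated variances that follow the level (degrees of freedom: residual 14, prior 5.7) and Benjamini-Hochberg adjustment over all 15052. The fit was tested on simulated data. Other tables were made with Python 3.11.15, pandas 2.3.3 and numpy 2.4.6. Alternatives were other pseudocounts, filters, scaling, sample sets and class margins, a replicate block and leaving out each library.

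The members and the 33 gene lists were chosen with earlier results of these data known. Named genes were those of the gates and the TAC label (Krt14, Lef1 and Shh) and the progenitor markers Prdm1, Foxq1 and Krt36. Also named were the called hair lineage genes with the largest changes (up to 12 each way, 5 FPKM or more on average where higher). Predicted names, small RNAs and joined rows were left out. Up to 6 such non-epithelial genes each way and called and abundant members of lists were added. Positions and promoters are from RefSeq, GRCm38.p6.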

Additional observations from a re-analysis of the deposited data

How the results depend on the processing

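The 190 calls between TAC and Mx became 121 with quantile normalization, 334 with the replicate number as a block, and 0 when the 4 TAC and Mx libraries were fitted alone with limma, where 2003 genes had an unadjusted p under 0.05 and the lowest adjusted p was 0.207. They ranged from 51 to 74 with 1 library left out, and from 138 to 218 under both other pseudocounts, both other filters, no trend and the 16 libraries of the line. The 61 hair lineage calls became 22 with a pseudocount of 0.1, 38 with quantile normalization, 101 with the block and 0 with the 4 libraries alone, and ranged from 16 to 29 with 1 library left out. With a pseudocount of 0.1 the total was 191, of which 139 were among the 190. With a pseudocount of 5 it was 138 (98 shared), of the 60 non-epithelial genes that rose 14 stayed called, and hair lineage calls numbered 82. Classing with the marker-negative sort added gave 49 hair lineage calls, and a margin of 1 for non-epithelial RNA gave 61. The cause of these shifts was not tested. All 190 kept their direction in every alternative in which they were tested (171 of 171 with a filter at 5 FPKM). This was largely fixed in advance and is no test of the calls. The block, the other filters, the fit without trend and the fits on fewer sorts leave each difference as it was. Leaving out TAC and Mx libraries and all other alternatives but the 4-library fit, 23 calls held throughout, among them Prdm1, Csta, Gchfr, Gli3, Soat1, Tgm6 and Uox of the genes named above, and no gene that fell. A lone library of a sort was then taken to vary like the other populations.

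The labels do not tie a replicate number to an animal. Deviations of same-numbered TAC and Mx libraries from their sort means correlated at 0.213. Over the 28 pairs of sorts of the line all correlations were positive, from 0.057 to 0.275, and 27 were over 0.1. A bar of 0.1 for every pair was a choice, and because 1 pair missed it the unblocked fit was kept as the main one. The pair that missed it was Mx and DP (0.057), not the pair compared here. Ddx3y, at 1.89 and 3.0 FPKM in TAC 1 and Mx 1 and at 0 in TAC 2 and Mx 2, shows that a number goes with the sex makeup of the animals. Over the 8 sorts of the line it was at 1.89 to 5.06 FPKM in libraries numbered 1 and at most 0.0341 FPKM in those numbered 2. The unblocked fit leaves this in the spread, so genes that it did not call can pass with the block. The block kept all 190 calls and added others, to 254 higher and 80 lower. Calls higher in TAC became 4 of the matrix transcription factors, 3 of the inner root sheath, 3 of the shaft structure, 2 of the Wnt, 5 of the BMP and TGF-beta and 2 of the melanocyte marker genes.

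With 2 libraries a sort and unknown depth, an uncalled difference is one not detectable in the unblocked fit, as for Lef1, Hoxc13 and the replication genes.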

Other observations

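The called genes given next were picked after their values were seen, for roles the lists above do not cover, and stand for no group. Alox8, a lipoxygenase, had 17.4 and 12 FPKM in TAC, against 0.899 and 2.19 FPKM in Mx (2.65 ± 0.36, adjusted p = 0.000497). Hsd17b2, which inactivates sex steroids, had 12.4 and 8.79 FPKM in TAC, against 1.29 and 0.687 FPKM in Mx (2.54 ± 0.53, adjusted p = 0.0186). B4galt6, which makes lactosylceramide, had 10.6 and 27.2 FPKM in TAC, against 0.484 and 1.22 FPKM in Mx (3.31 ± 0.46, adjusted p = 0.000540), and the cholesterol exporter Abca1 had 22.3 and 13.8 FPKM in TAC, against 5.85 and 5.01 FPKM in Mx (1.53 ± 0.34, adjusted p = 0.0256). Acsl5, which activates fatty acids, fell, with 8.98 and 7.18 FPKM in TAC, against 31.5 and 26.4 FPKM in Mx (-1.72 ± 0.36, adjusted p = 0.0192). Alox8 and B4galt6 stayed called whichever library was left out.

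The largest differences of all members were in short RNA genes and did not pass. Mir24-2 had 3335 and 1100.4 FPKM in TAC and was listed at 0 in both Mx libraries (adjusted p = 0.177). Snora41 was listed at 0 in both TAC libraries and had 494.1 and 1011.4 FPKM in Mx (adjusted p = 0.0576).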
